A study of Mus musculus with 5 samples.

Results

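Integrins are the receptors by which cells hold to the matrix around them, and laminins and nephronectin are ligands of that matrix. The set described here holds the integrin alpha and beta subunits, the laminin alpha, beta and gamma chains and nephronectin (Npnt), chosen by their symbols in the deposited table. It has 37 genes of the 19699 entries of the table, namely 25 integrin subunits, 11 laminin chains and Npnt. Bulk RNA-seq covered the main airway, trachea and lung together, of C57 mouse embryos at E13.5. There were 2 mutant libraries, in which Prmt5, an arginine methyltransferase gene, was deleted in lung epithelial cells, and 3 control libraries of littermates given as WT. The design text names Shh beside Prmt5 in the mutant genotype, and the genotype label calls the mutants a knockdown. Whether a library held 1 embryo or several is not stated, so p-values here cover the spread among libraries, part of which may be technical.

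An integrin is a pair of an alpha and a beta subunit, and a laminin is a trimer of an alpha, a beta and a gamma chain. Laminins form the sheet of the basement membrane on which epithelia, muscle and vessels sit. In the growing lung, the epithelial buds and the mesenchyme around them both add to this sheet. Nephronectin is a protein of the basement membrane with an RGD (arginine, glycine, aspartate) site. It is the ligand of the integrin made of Itga8 and Itgb1, and mice that lack either protein have defects of kidney development.

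Depth was even, at 15756526 and 15652503 reads in mutants 1 and 2 and at 18682463, 16305922 and 18219269 reads in controls 1, 2 and 3, as recovered from the steps between values. All values are FPKM, fragments per kilobase of gene scaled to the reads of the library, so levels can be compared between genes. Prmt5 was at 23.7 and 20.1 FPKM in the mutants, against 28.7, 26.4 and 25.8 FPKM in the controls. Both mutants lay below all controls, but the log2 change of -0.29 did not pass with limma (adjusted p = 0.234; exact permutation p = 0.1, two-sided, the smallest that 2 against 3 libraries allow). Xist, expressed from the inactive X chromosome of females, ranged between 0.0673 and 0.289 FPKM in mutant libraries, against 57.3 to 115 FPKM in control libraries. Summed FPKM of 4 Y-linked genes was 31.5 and 27.1 in the mutants, against 23.0, 18.9 and 4.49 in the controls. Controls 1 and 2 had Xist at 57.3 and 58.1 FPKM beside that Y-linked RNA, so each held RNA of both sexes. Each thus held RNA of more than 1 embryo, and the number per library is not stated. The sex make-up thus moved with genotype, and effects of sex and of genotype cannot be told apart here. Summed Y-linked FPKM was used as a covariate in an alternative. It follows Y-linked RNA, at 23.0 in control 1 and 4.49 in control 3, and not Xist, so it cannot separate sex from genotype.

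Prmt5-mutant airways held more RNA of nephronectin and of the receptor subunits Itga8 and Itga3, and the levels of the common beta subunit Itgb1 overlapped between the groups. Of the 37 genes, 29 reached 1 FPKM in at least 2 libraries and were tested, and 3 passed an adjusted p of 0.05, all 3 higher in the mutants. Among all 12838 genes tested, 0.989% were called higher and 1.37% lower, 2.36% in all. Without mutant 1, mutant 2 or control 1 the count for the set was 1, 0 and 1, and with no filter on low values it was 1. No gene of the set was called lower by limma. At an unadjusted p under 0.05 there were 11 genes of the set higher and 1 lower, where all genes gave 6.53% and 12.3%. Lamc3 was among the higher and Itga7 was the lower one, and each reached the filter through the group where it was high. Leaving out these and Itga11, which entered in the same way, 10 of 26 were higher and 0 lower at that p. Voom on the recovered reads called 6 higher and 0 lower, against 1.89% and 2.8% of all genes. The median log2 change of the 29 was 0.01, against -0.06 over all genes tested.

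The 3 genes called are shown with the bases just upstream of their annotated start, since their RNA was higher in the same libraries. Sequences are RefSeq promoter windows of GRCm38.p6, minus strand, 5′ to 3′, at chr3:132950292-132950541 for Npnt, chr2:12301945-12302194 for Itga8 and chr11:95076802-95076964 for Itga3. Capitals mark matches, on either strand, to 1 of 7 short motifs: the GC box GGGCGG, the TATA box TATAAA, the CCAAT box CCAAT, a forkhead site TGTTTNC, an NKX2-1 site CAAGTG, a TEAD site GGAATG and an E-box CACGTG.
Npnt: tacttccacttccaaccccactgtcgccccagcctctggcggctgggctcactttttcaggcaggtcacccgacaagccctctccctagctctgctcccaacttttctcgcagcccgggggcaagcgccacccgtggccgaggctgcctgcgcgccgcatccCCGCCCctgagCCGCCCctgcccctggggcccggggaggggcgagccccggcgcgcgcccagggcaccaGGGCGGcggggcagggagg
Itga8: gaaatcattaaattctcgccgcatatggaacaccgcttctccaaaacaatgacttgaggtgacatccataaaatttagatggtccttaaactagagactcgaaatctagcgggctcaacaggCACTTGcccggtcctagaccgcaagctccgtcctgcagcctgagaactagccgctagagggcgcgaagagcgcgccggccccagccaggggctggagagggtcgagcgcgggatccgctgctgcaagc
Itga3: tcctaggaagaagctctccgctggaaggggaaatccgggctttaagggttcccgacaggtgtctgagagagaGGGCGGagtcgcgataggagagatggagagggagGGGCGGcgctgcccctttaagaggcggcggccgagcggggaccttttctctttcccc
The Npnt window held 3 GC boxes and the Itga3 window 2, and the Itga8 window held none. Of 27025 windows of the same length, 33.0% hold a GC box at 250 bases and 18.2% at 163 bases. At 163 bases these were the bases of each 250-base window farthest from its start, so they match the Itga3 window in length only. A single NKX2-1 match stood in the Itga8 window, and 11.6% of all windows of that length hold one. The GC content was 74.0% for Npnt, 56.4% for Itga8 and 62.6% for Itga3, where the median of all windows is 52.0% at 250 bases and 50.9% at 163 bases. These matches are a description of letters, and the 3 windows shared no motif among the 7.

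Npnt (chromosome 3, 132881745 to 132950291, GRCm38) rose the most of the 3 by fold. It was at 51.1 and 57.7 FPKM in the mutants, against 20.6, 22.8 and 21.6 FPKM in the controls. The groups lay far apart and varied little within, at 54.4 ± 4.71 FPKM (SD, n = 2) in the mutants against 21.7 ± 1.13 FPKM (SD, n = 3) in the controls. This was a 2.51-fold difference of means and a log2 change of 1.29 (SE 0.11, limma adjusted p = 0.00641). The counts behind it were 8585 reads over the mutants, against 5780 over the controls. Log2 changes are those of log2(FPKM + 1), mutant minus control, which understates the change of low genes.

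Itga8 (chromosome 2, 12106632 to 12301922), the alpha subunit that binds nephronectin and is known from mesenchyme and smooth muscle, also rose. Its level was 23.3 and 17.0 FPKM in the mutants, against 8.59, 7.72 and 11.8 FPKM in the controls. The groups did not overlap. The SD in FPKM was larger in the mutants, as was the mean (20.1 ± 4.46 FPKM, SD, n = 2, against 9.37 ± 2.14 FPKM, SD, n = 3). The difference was 2.15-fold, with a log2 change of 1.03 (SE 0.20, limma adjusted p = 0.0479). An antisense gene shares 5.05% of the exon bases of Itga8, and reads from it cannot be told apart where strand was not used. In each library Npnt was above Itga8, at a ratio of 2.19 and 3.41 in the mutants and of 2.39, 2.96 and 1.83 in the controls. These ratios overlapped between the groups. Smooth muscle markers, given with Itga7, were lower in summed FPKM in both mutants. Mesenchyme markers summed to 1671 and 1381 FPKM in the mutants, against 1655, 1684 and 2149 FPKM in the controls. Of these 8 genes, 4 had both mutants above all controls and 3 had both below, where all genes gave 13.2% and 24.4%. Of the 8, 1 was called higher, against 0.989% of all genes. It was Tbx4, a transcription factor gene of lung mesenchyme, at 49.9 and 43.3 FPKM in the mutants, against 18.0, 27.3 and 22.9 FPKM in the controls (log2 change 1.02, limma adjusted p = 0.0343). At an unadjusted p under 0.05 Tbx4, Tbx5, Foxf1 and Tcf21 were higher and Col1a2 was lower, where all genes gave 6.53% and 12.3%. The part of these tissues in the level of Itga8 was not tested.

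Itga3 (chromosome 11, 95044474 to 95076801), the alpha subunit of a laminin receptor of epithelia, rose as well. It was at 17.2 and 19.5 FPKM in the mutants, against 9.79, 11.6 and 7.89 FPKM in the controls. Both mutants were above all controls, by 1.87-fold on means of 18.3 ± 1.65 FPKM (SD, n = 2) against 9.77 ± 1.86 FPKM (SD, n = 3). The log2 change was 0.86 (SE 0.16, limma adjusted p = 0.0445). This call and that of Itga8 lie close to the threshold. Itga3 lost the call with no filter (limma adjusted p = 0.153), median ratio scaling (0.0564), quantile normalization (0.0654), the replicate block (0.0715) and the Y-linked covariate (0.155). Itga3 also lost the call without control 1 or 3 (limma adjusted p = 0.0693 and 0.0629) and without mutant 1 or 2. Itga8 lost the call with no filter (limma adjusted p = 0.166), a pseudocount of 0.1 (0.0516), without control 1 or 2 (0.0819 and 0.0833) and without mutant 1 or 2. Itga8 kept the call with the Y-linked covariate, which cannot separate sex from genotype. Npnt lost its call in 1 of 14 alternatives, without mutant 2, where its log2 change was 1.20.

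**Figure D1:**
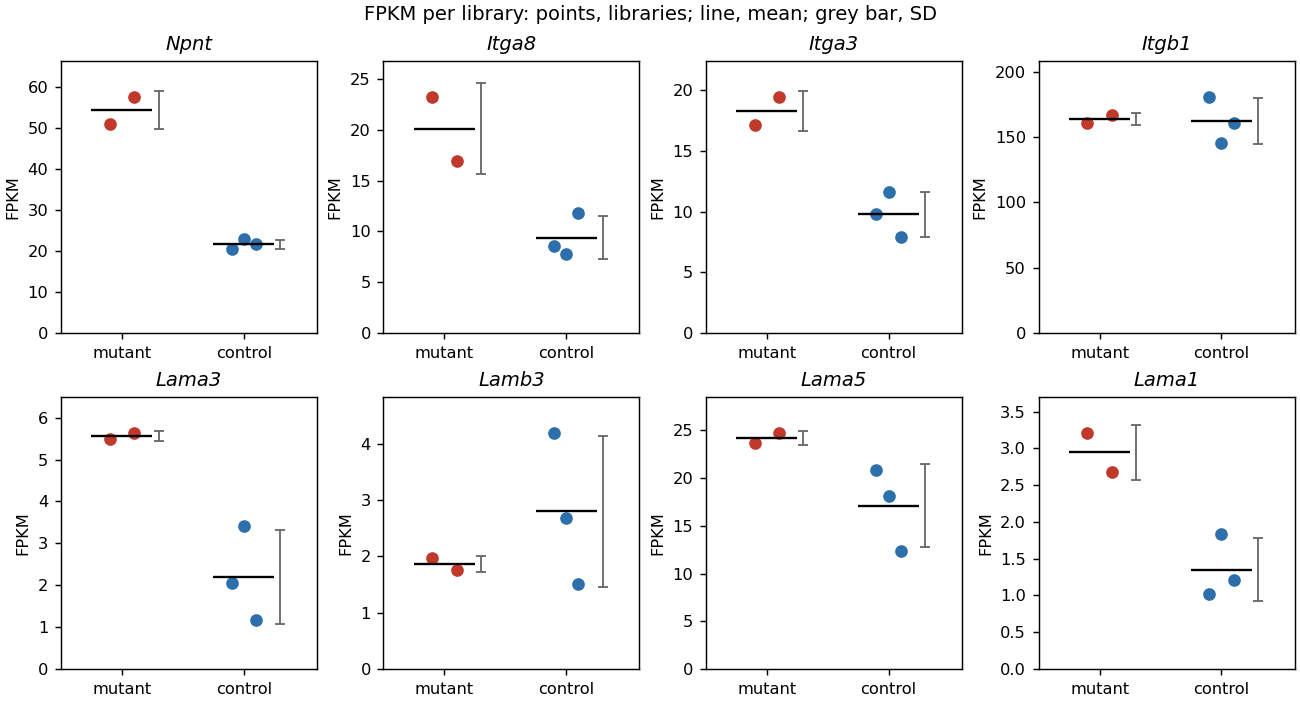
FPKM of 8 genes in each library, mutants left of controls, with the mean as a line and the SD as a grey bar beside it; each axis starts at 0. Both mutants lie above all 3 controls for Npnt, Itga8, Itga3, Lama3, Lama5 and Lama1, while the groups overlap for Itgb1 and Lamb3.

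The laminin alpha chains give a laminin its site in the body. Lama1 and Lama5 are chains of epithelial basement membranes, Lama3 is the chain of the laminin that anchors epithelia, Lama2 is known from muscle and nerve, and Lama4 from vessels and mesenchyme. None of the 5 passed over all genes, with 0 called by limma. At an unadjusted p under 0.05, 3 were higher and 0 lower, where all genes gave 6.53% and 12.3%. Voom called 2 higher (Lama1 and Lama3), against 1.89% of all genes. Lama3 was at 5.49 and 5.64 FPKM in the mutants, against 2.04, 3.40 and 1.17 FPKM in the controls. Its means were 5.57 ± 0.11 FPKM (SD, n = 2) against 2.20 ± 1.13 FPKM (SD, n = 3), with a log2 change of 1.09 (SE 0.27, adjusted p = 0.0869). Both mutants were above all controls, and the controls spread more among themselves than the mutants did.

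Lama1, the alpha chain of the first laminin of the embryo, was at 3.21 and 2.68 FPKM in the mutants, against 1.02, 1.83 and 1.21 FPKM in the controls (log2 change 0.76, SE 0.19, limma adjusted p = 0.0911). Lama5, the main epithelial alpha chain here, was at 23.7 and 24.8 FPKM in the mutants, against 20.8, 18.1 and 12.3 FPKM in the controls. Its log2 change was 0.51 (SE 0.20, adjusted p = 0.228), with no overlap of the groups. It was 0.30 without control 3 and 0.16 with the Y-linked covariate (adjusted p = 0.36 and 0.807). Lama4 was at 25.5 and 19.3 FPKM in the mutants, against 24.5, 20.6 and 25.1 FPKM in the controls. Its groups overlapped, and its log2 change of -0.07 turned to 0.01 with median ratio scaling. Lama2 was at 3.08 and 2.46 FPKM in the mutants, against 3.66, 3.04 and 4.47 FPKM in the controls (log2 change -0.32, adjusted p = 0.371).

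The make-up of the alpha chains was read as a share of their summed FPKM. Lama3 took 8.997% and 10.3% in the mutants, against 3.92%, 7.24% and 2.65% in the controls. Lama1 took 5.27% and 4.90% in the mutants, against 1.96%, 3.90% and 2.73% in the controls. Shares of both chains were higher in both mutants than in any control. Lama4 took 41.8% and 35.1% in the mutants and 47.1%, 43.8% and 56.7% in the controls, and Lama2 5.06% and 4.48% against 7.03%, 6.47% and 10.1%. For Lama5 the shares overlapped, at 38.9% and 45.2% in the mutants and 40.0%, 38.6% and 27.9% in the controls. Exact permutation tests, two-sided, gave p = 0.5 for the share of Lama5 and p = 0.2 for each of the other 4, and 0.1 is the smallest p possible.

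Beta and gamma chains complete the trimer. Lamb1 and Lamc1, the chains shared by most laminins, were the highest of their kinds in all 5 libraries. Lamc1 was at 73.4 and 73.2 FPKM in the mutants, against 57.8, 60.6 and 53.1 FPKM in the controls, with a log2 change of 0.36 (SE 0.11, limma adjusted p = 0.129). Lamb1 was at 46.1 and 45.2 FPKM in the mutants, against 39.4, 33.9 and 36.5 FPKM in the controls, with a log2 change of 0.31 (SE 0.11, adjusted p = 0.172). Neither pair of groups overlapped, but the changes were small and did not pass over all genes. Lamb2, a beta chain known from muscle and vessels, overlapped, at 26.8 and 19.4 FPKM in the mutants, against 26.0, 22.9 and 28.4 FPKM in the controls.

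Lamb3 is the beta partner of Lama3 in the epithelial anchoring laminin. Voom called Lama3 and Lama1 (adjusted p = 0.0277 and 0.0204). With the Y-linked covariate the log2 change of Lama3 was 0.71 (limma adjusted p = 0.302). Lamb3, singled out after its values were seen, was at 1.97 and 1.76 FPKM in the mutants, against 4.201, 2.69 and 1.51 FPKM in the controls. Its groups overlapped, with a log2 change of -0.35 (SE 0.29, adjusted p = 0.58) that was -0.09 without control 1 and -0.83 with the Y-linked covariate. The ratio of Lama3 to Lamb3 was 2.79 and 3.21 in the mutants, against 0.486, 1.26 and 0.774 in the controls. The pair was set side by side with these values known, so the ratio is given with no test.

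Lamc3, a gamma chain of low level, was at 1.42 and 1.88 FPKM in the mutants, against 0.308, 0.946 and 0.775 FPKM in the controls (log2 change 0.67 with an SE of 0.23, adjusted p = 0.174). It reached the 1 FPKM filter through the mutants alone, so a difference was built into its being tested. Of the other 10 laminin chains, 6 had both mutants above all controls and 0 had both below. Such a pattern held for 13.2% and 24.4% of all genes tested. The median log2 change of these 10 was 0.34, against -0.06 over all genes. The summed FPKM of all 11 chains was 223 and 209 in the mutants, against 185, 175 and 167 in the controls.

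**Figure D2:**
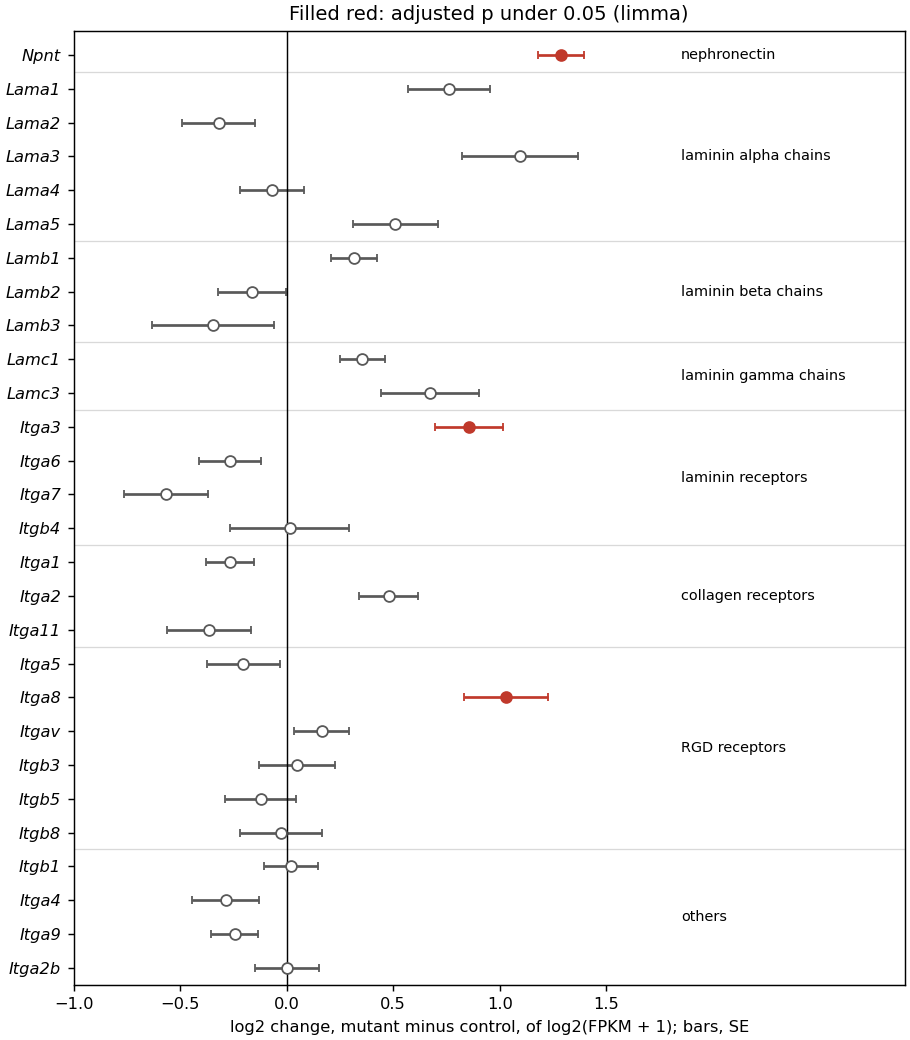
Log2 change with its standard error for 28 of the genes tested, mutant minus control, grouped by role; filled red points passed an adjusted p of 0.05. Npnt, Itga3 and Itga8 passed, at 1.29, 0.86 and 1.03, and the laminin chain Lama3 had a change of 1.09 with a wider error.

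Among the receptors of laminin, Itga3 was called and the others were not. Itga6, which pairs with Itgb4 in hemidesmosomes and with Itgb1 elsewhere, was at 12.6 and 10.7 FPKM in the mutants, against 16.5, 12.4 and 13.9 FPKM in the controls (log2 change -0.26, SE 0.15, limma adjusted p = 0.381). The ratio of Itga3 to Itga6 within a library was 1.36 and 1.82 in the mutants, against 0.594, 0.939 and 0.567 in the controls. Itga3 was thus the higher of these laminin receptor subunits in both mutants and the lower in all 3 controls. Itgb4 overlapped, at 4.25 and 2.40 FPKM in the mutants, against 4.77, 2.27 and 2.89 FPKM in the controls. Its log2 change of 0.01 had an SE of 0.28 and turned negative with the replicate block and with the Y-linked covariate.

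Itga7 is the laminin receptor subunit of muscle, and it was low. It was at 0.838 and 0.589 FPKM in the mutants, against 1.97, 1.28 and 1.38 FPKM in the controls, from 90 and 333 reads (log2 change -0.57, SE 0.20, adjusted p = 0.181). Both mutants lay below all controls, as for 24.4% of all genes, and Itga7 passed the filter through the controls alone. Skeletal muscle markers moved with it: 7 of 8 tested of a list of 10 were called lower, against 1.37% of all genes. Myh8, among those called, passed the filter through the controls alone. The summed FPKM of the list was 11.1 and 31.0 in the mutants, against 210, 153 and 183 in the controls. Smooth muscle markers summed to 200 and 160 FPKM in the mutants, against 428, 272 and 322 FPKM in the controls. Of 6 tested, 1 was called lower and 5 were lower at an unadjusted p under 0.05, where all genes gave 1.37% and 12.3%. All 6 had both mutants below all controls, against 24.4% of all genes. Lmod1, among them, passed the filter through the controls alone. The part of muscle in the level of Itga7 was not tested. In bulk tissue, fewer cells of a type and less RNA per cell cannot be told apart.

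The collagen receptors, all of which pair with Itgb1, gave 0 calls by limma and by voom. Among 3 tested, 1 had an unadjusted p under 0.05 with limma, against 18.9% of all genes. That gene was Itga2, at 8.21 and 6.29 FPKM in the mutants, against 5.11, 4.58 and 4.98 FPKM in the controls (log2 change 0.48, SE 0.14, limma adjusted p = 0.124). Itga1, known from smooth muscle and mesenchyme, was at 6.62 and 5.93 FPKM in the mutants, against 8.20, 7.48 and 7.54 FPKM in the controls (log2 change -0.27 with an SE of 0.11, adjusted p = 0.267). Itga11, a fibroblast collagen receptor subunit, was at 0.532 and 0.647 FPKM in the mutants, against 1.30, 1.08 and 0.792 FPKM in the controls (adjusted p = 0.376), and passed the filter through the controls alone. So Itga2 stood above its controls and Itga1 and Itga11 below theirs, none past the threshold. Such patterns held for 13.2% and 24.4% of all genes. Itga10, a cartilage subunit, was not tested, at 0.493 to 0.747 FPKM in the mutants, against 0.635 to 0.96 FPKM in the controls.

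Receptors of RGD ligands other than Itga8 overlapped between the groups. Itga5, the fibronectin receptor subunit, was at 25.4 and 21.5 FPKM in the mutants, against 21.7, 29.0 and 31.6 FPKM in the controls (log2 change -0.20, adjusted p = 0.59). Itgav was at 7.57 and 8.15 FPKM in the mutants, against 6.76, 6.16 and 7.88 FPKM in the controls. Its main beta partner by level was Itgb5, at 47.2 and 34.8 FPKM in the mutants, against 45.5, 38.2 and 49.8 FPKM in the controls. Itgb3 and Itgb8 lay between 1.70 and 2.57 FPKM in the mutants and between 1.49 and 2.69 FPKM in the controls, with log2 changes of 0.05 and -0.03. That of Itgb8 was 0.03 with median ratio scaling and 0.11 with quantile normalization. Itgb6, the epithelial partner that activates latent TGF-beta, was under the filter. It was at 0.178 and 0.467 FPKM in the mutants, against 0.542, 0.354 and 0.355 FPKM in the controls, from 72 and 159 reads.

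Itgb1, the beta subunit that Itga8 and Itga3 need to reach the cell surface, was the highest gene of the set. It was at 160 and 167 FPKM in the mutants, against 181, 145 and 160 FPKM in the controls, or 164 ± 4.75 FPKM (SD, n = 2) against 162 ± 17.9 FPKM (SD, n = 3). The groups overlapped, and the log2 change of 0.02 (SE 0.13, limma adjusted p = 0.958) was -0.02 with quantile normalization and near 0 with the Y-linked covariate. Itgb1 made up 73.8% and 79.4% of the summed beta subunit FPKM in the mutants, against 76.4%, 76.3% and 72.9% in the controls. Itga8 per unit of Itgb1 was 0.145 and 0.101 in the mutants, against 0.0475, 0.0532 and 0.0735 in the controls.

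Itga4 and Itga9, subunits that bind fibronectin variants and osteopontin, lay lower in both mutants than in any control. Itga9 was at 9.16 and 8.33 FPKM in the mutants, against 10.3, 10.1 and 11.2 FPKM in the controls (log2 change -0.24, SE 0.11, limma adjusted p = 0.293). Itga4 was at 1.87 and 1.65 FPKM in the mutants, against 2.22, 2.15 and 2.76 FPKM in the controls (log2 change -0.29 with an SE of 0.16, adjusted p = 0.378). Groups not overlapping in that direction were seen for 24.4% of all genes, and neither passed.

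Leukocyte and platelet integrins were near the floor of the table. Of the 7 in it, only Itga2b, the platelet subunit, was tested, at 1.70 and 1.94 FPKM in the mutants, against 1.68, 1.90 and 1.87 FPKM in the controls (log2 change 0.00, adjusted p = 0.995). Itgal, Itgam, Itgax, Itgae, Itgb2 and Itgb7 lay between 0.0133 and 0.754 FPKM in the mutants and between 0.0457 and 0.852 FPKM in the controls. Itgam and Itgax rested on 18 and 6 reads over the mutants, against 40 and 19 over the controls, so a difference was not detectable at this depth. By the GENCODE M21 annotation, 68.7% of the exon bases of Itgam lie in another annotated gene. Leukocyte markers were present, at a summed 139 and 112 FPKM in the mutants, against 77.1, 117 and 105 FPKM in the controls. Of 11 tested, 0 were called by limma and 1 was higher at an unadjusted p under 0.05, against 6.53% of all genes. Both mutants were above all controls for 4 of the 11 and below for 0, where all genes gave 13.2% and 24.4%.

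**Figure D3:**
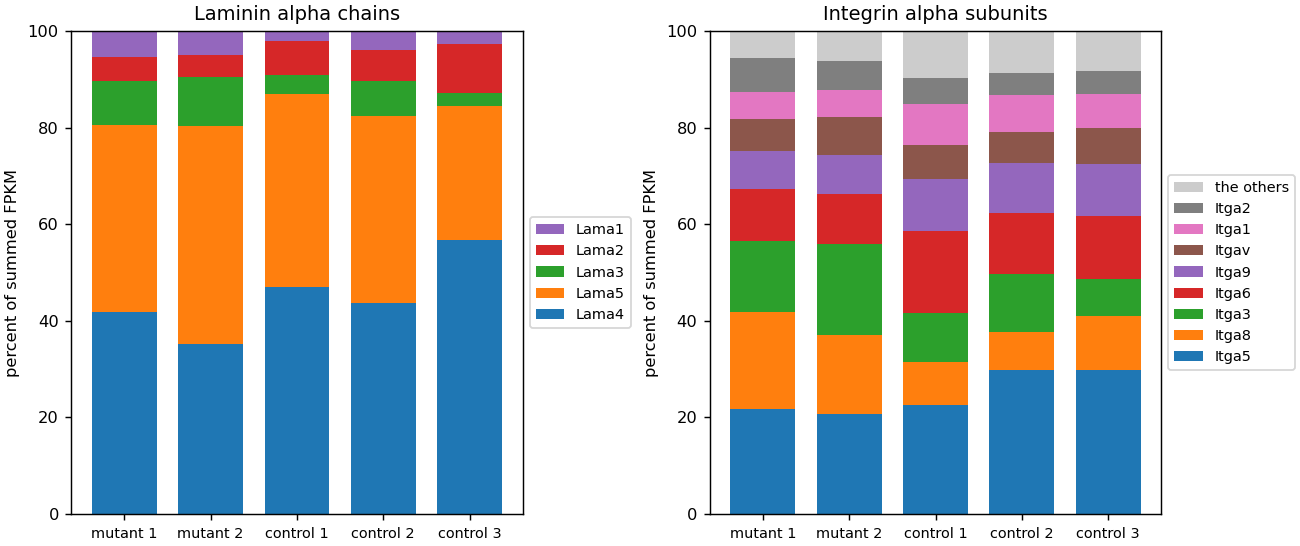
Share of each laminin alpha chain and of each main integrin alpha subunit in the summed FPKM of its kind, 1 bar per library, mutants left of controls. Lama3 took 8.997% and 10.3% in the mutants against 2.65% to 7.24% in the controls, and Itga8 took 20.0% and 16.4% against 7.93% to 11.2%.

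The alpha subunits together summed to 117 and 104 FPKM in the mutants, against 96.2, 97.4 and 105 FPKM in the controls, so their totals overlapped. Itga8 took 20.0% and 16.4% of that sum in the mutants, against 8.93%, 7.93% and 11.2% in the controls. For Itga3 the share was 14.7% and 18.8% in the mutants, against 10.2%, 11.9% and 7.48% in the controls. Itga5 was the largest share in all 3 controls, at 22.5%, 29.8% and 29.9%, and held 21.8% and 20.8% in the mutants. A share falls when another rises, so these numbers do not show by themselves that Itga5 changed.

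Epithelial and mesothelial markers were read beside these genes, since laminins and Itga3 are made by both tissues. The 12 epithelial markers summed to 324 FPKM in each mutant, against 790, 406 and 302 FPKM in the controls, with 0 called by limma. At an unadjusted p under 0.05, 4 of the 12 were lower, and 7 had both mutants below all controls, where all genes gave 12.3% and 24.4%. Control 1 had the highest sum. Epcam, which encodes an epithelial adhesion protein, stood at 38.2 and 40.1 FPKM in the mutants, against 124, 66.5 and 51.4 FPKM in the controls. Nkx2-1, Krt18, Krt19, Cldn6 and Cldn7 of the same list overlapped between the groups. Nkx2-1 was at 36.1 and 32.8 FPKM in the mutants, against 40.2, 43.1 and 20.4 FPKM in the controls (log2 change 0.06). The epithelial sum of the mutants lay within the range of the controls. Mesothelial markers summed to 118 and 147 FPKM in the mutants, against 109, 83.5 and 62.2 FPKM in the controls, and Krt19 belongs to both lists. Both mutants were above all controls for 4 of these 6, with 0 called by limma and 4 higher at an unadjusted p under 0.05, where all genes gave 13.2% and 6.53%. Upk3b, which encodes a mesothelial uroplakin, stood at 43.2 and 63.2 FPKM in the mutants, against 6.19, 33.4 and 20.6 FPKM in the controls. Msln and Krt19 of that list overlapped between the groups. Msln was at 0.120 and 0.786 FPKM in the mutants, against 1.47, 1.10 and 0.753 FPKM in the controls (log2 change -0.56). It passed the filter through the controls alone. No marker of either list was at 0 in every library. The part of either tissue in the levels of the laminins, integrins and nephronectin was not tested.

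**Figure D4:**
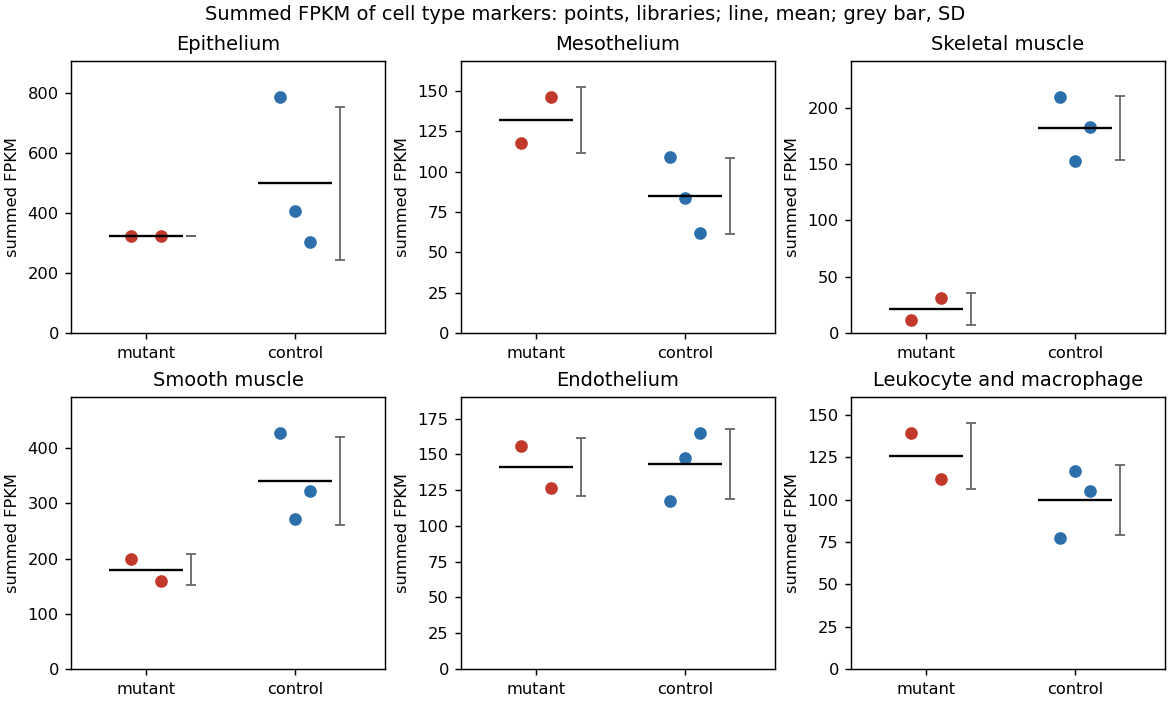
Summed FPKM of markers of 6 cell types in each library, mutants left of controls, with the mean as a line and the SD as a grey bar; each axis starts at 0. Skeletal muscle markers are at 11.1 and 31.0 in the mutants against 153 to 210 in the controls, mesothelial markers are higher in both mutants, and control 1 has the highest epithelial sum, at 790.

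The other genes of the basement membrane and of integrin ligands gave 3 calls among 31 tested of 35, with 1 higher and 2 lower in the mutants, where all genes gave 0.989% higher and 1.37% lower. Frem2, of the Fraser complex that in mice holds nephronectin in the basement membrane, rose to 27.7 and 31.8 FPKM in the mutants, against 16.7, 17.8 and 16.9 FPKM in the controls (log2 change 0.76, SE 0.11, limma adjusted p = 0.0195). For its partners Frem1 and Fras1 the log2 changes were 0.82 and -0.03, not past the threshold (adjusted p = 0.16 and 0.957). Smoc2, a matrix protein that binds calcium, fell to 14.6 and 13.45 FPKM in the mutants, against 33.0, 38.9 and 44.6 FPKM in the controls (log2 change -1.40, adjusted p = 0.00691). Tnc, which encodes tenascin C, a ligand of Itga8 and Itga9 integrins, fell to 8.84 and 8.33 FPKM in the mutants, against 18.7, 16.8 and 19.5 FPKM in the controls (log2 change -1.01, adjusted p = 0.00862). Of these ligands of the Itga8 integrin, Npnt thus rose and Tnc fell. Frem2 lost its call in 5 of 14 alternatives, among them the Y-linked covariate (adjusted p = 0.0694) and each mutant left out (0.0912 and 0.179). Smoc2 and Tnc lost theirs without mutant 1 (adjusted p = 0.0655 and 0.0759) and without mutant 2 (0.0853 and 0.0938).

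Col4a4, a collagen IV chain, was at 1.88 and 2.60 FPKM in the mutants, against 0.671, 0.8495 and 0.460 FPKM in the controls (adjusted p = 0.0562), and passed the filter through the mutants alone. The common collagen IV chains Col4a1 and Col4a2 had log2 changes of 0.20 and 0.22 (adjusted p = 0.335 each). Nidogen genes, which link laminin to collagen IV, were at -0.27 for Nid1 and 0.26 for Nid2 (adjusted p = 0.267 and 0.432). The fibronectin gene Fn1, ligand of the Itga5 integrin, was at 84.0 and 89.0 FPKM in the mutants, against 73.8, 92.7 and 109 FPKM in the controls. The list as a whole had a median log2 change of -0.04, near the -0.06 of all genes.

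The list of integrin partners, in the membrane and between integrins and actin, gave no call by limma. Of its 39 genes, all tested, 0 passed with limma, 3 were higher and 7 lower at an unadjusted p under 0.05, and 1 passed with voom (Ptk2b, adjusted p = 0.0384). All genes gave 6.53% higher and 12.3% lower at that unadjusted p. The smallest p was that of Itgb1bp2, a muscle partner of Itgb1, at 1.59 and 1.88 FPKM in the mutants, against 4.999, 3.68 and 7.84 FPKM in the controls (log2 change -1.20, adjusted p = 0.0585), and skeletal muscle markers were lower in the same libraries. Cd47, a membrane partner of integrins, was at 10.8 and 10.7 FPKM in the mutants, against 15.4, 13.9 and 15.0 FPKM in the controls (log2 change -0.43, adjusted p = 0.0839). Cd9, a tetraspanin gene, was at 10.9 FPKM in each mutant, against 38.2, 18.8 and 17.8 FPKM in the controls (log2 change -1.04, adjusted p = 0.118). Ptk2b, a kinase of the FAK family, was at 2.47 and 2.06 FPKM in the mutants, against 0.970, 1.18 and 1.42 FPKM in the controls (log2 change 0.58, limma adjusted p = 0.131). The genes for talin, Tln1, kindlin, Fermt2, and FAK, Ptk2, had log2 changes of 0.16, -0.15 and -0.12. The median of the list was -0.07.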

How the data were processed

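RNA-seq of 2 mutant and 3 control libraries was analysed from 1 table in which the authors deposited FPKM values for 19699 gene entries, the unit being per the name of the deposited table. Groups were taken from the genotype labels and replicate numbers from the titles. Libraries were built with a SMARTER mRNA-Seq kit from RNeasy-purified RNA, per the labels' protocols. The submitters' processing notes name GRCm38 (mm10). Not given in the sources used here were aligner, counter, annotation and use of strand. Exons of 11 of the 37 genes (Itga1, Itga4, Itga7, Itga8, Itga10, Itgam, Itgav, Itgb4, Lama2, Lama3 and Lamc3) overlap another annotated gene, by 0.11% to 68.7% of their exon bases, and such reads cannot be told apart.

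The 5 values of every entry were whole numbers of reads, within 1e-06 reads, once scaled by a gene length and the library totals. Lengths came from GENCODE M21 (GRCm38) for 13965 entries and from the steps for 5734, where reads are the smallest that can be had. Positions came from the same annotation. Counts cover counting error only.

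The test was limma 3.58.1 in R 4.3.3 (lmFit and trended eBayes), two-sided and without covariates, of log2(FPKM + 1). The 12838 genes that reached 1 FPKM in 2 libraries entered, with Benjamini and Hochberg's adjustment over all of them and a threshold of 0.05. The same steps were tested on simulated reads. Alternatives were another pseudocount (0.1 or 0.5), no filter or a filter on the mean, median ratio scaling, quantile normalization, the replicate number as a block, Y-linked expression as a covariate, voom on the recovered reads, and leaving out each library. Genes named in full were those called, 10 set ones (Npnt, Itga8, Itgb1, Itga6, Itgb4, Itgb6, Lama1, Lama5, Lamb1 and Lamc1), those whose groups did not overlap at a mean of 1 FPKM or more, and, in each of the 2 further lists, those called and the 4 with the smallest p. Frem1, Fras1, Col4a1, Col4a2, Nid1, Nid2, Fn1, Tln1, Fermt2, Ptk2, Upk3b, Msln, Krt18, Krt19, Epcam, Nkx2-1, Cldn6, Cldn7, Myh8, Lmod1, Tbx4, Tbx5, Foxf1, Tcf21, Col1a2 and the remaining members were named outside that rule. The counts include 1 gene of the 37 that is not reported here. The genes and lists were chosen with earlier results of these data known.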

Additional observations from a re-analysis of the deposited data

How the results depend on the processing

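Over 14 alternatives, Npnt kept its call in 13, Itga8 in 8 and Itga3 in 5, and all 3 stayed higher in the mutants in each. The count of the 37 genes called was 1 with no filter and 6 with voom, and 0 to 3 without 1 library, lowest without mutant replicate 2. The basement membrane list gave 0 to 3 calls without 1 library, with 0 when either mutant was left out. The adhesion machinery list gave 1 with voom and 0 to 1 without 1 library. Over all genes the 303 calls (127 higher, 176 lower) became 69 with no filter, 177 with the Y-linked covariate and 603 with voom, and 12 to 308 without 1 library, with 21 and 12 when mutant replicate 1 or 2 was left out. Quantile normalization gave 133 higher and 117 lower. A lone mutant was assumed to vary like the controls. The median change of all genes was -0.06, 0.01 with either scaling, and -0.12 without mutant replicate 1.

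Same-numbered libraries did not deviate together (correlations of -0.0671 and 0.0203), and no label ties the numbers to a litter. With the replicate block 3 of the 37 genes were called, Itga3 not among them, and 259 of all genes.

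Log2 changes near 0 turned sign for these genes, all of them not called. Itgb1 was at -0.0218 with quantile normalization and -0.00456 with the Y-linked covariate. Itgb4 was at -0.0393 with the replicate block and -0.149 with the covariate. Itgb8 was at 0.0298 with median ratio scaling, 0.106 with quantile normalization, 0.126 with the replicate block and 0.223 with the covariate, and Lama4 at 0.0133 with median ratio scaling. Without 1 library the ranges were -0.0608 to 0.0649 for Itga2b, -0.0567 to 0.101 for Itgb1, -0.0924 to 0.117 for Itgb3, -0.299 to 0.326 for Itgb4, -0.336 to 0.0927 for Itgb5, -0.11 to 0.126 for Itgb8, -0.261 to 0.125 for Lama4 and -0.387 to 0.0591 for Lamb2. The causes were not tested. With 2 against 3 libraries, single values cannot pass an exact test.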
